A study of Mus musculus with 2 samples.

Results

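The 10 forkhead genes *Foxc1*, *Foxc2*, *Foxd1*, *Foxd2*, *Foxf1*, *Foxf2*, *Foxl1*, *Foxl2*, *Foxp1* and *Foxp2* were examined for DLX2 peaks in the embryonic upper jaw, out of 21779 protein-coding genes with a usable position. They were taken as a list of forkhead genes with known roles in development, many of them in the head or its mesenchyme. The list was drawn up with earlier results of these data known. All 10 were found in the RefSeq annotation of GRCm38. For each gene, the peaks inside it or within 100 kb of either end were collected, and these stretches are called windows. Where windows of neighbouring genes overlapped they were joined, which left 7 loci and 2.78 Mb of sequence.

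The peaks came from CUT&Tag, in which an antibody against a DNA-bound protein directs a transposase to cut and tag the DNA beside it. An anti-DLX2 antibody was used on maxillary process cells of wildtype C57BL/6 embryos at E12.5. The upper jaw arises in large part from this process. The 2 libraries are replicates of 1 group, numbered as their records are ordered, and nothing in the sources says whether they came from separate embryos or litters. With neither a control library nor a second genotype at hand, no contrast was tested. The peak lists hold no expression values, and the tissue label could not be checked against marker genes.

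Forkhead proteins are transcription factors that bind DNA through a winged-helix domain, and many act in mesenchyme. *Foxc1* and *Foxc2* are close relatives that act in skull, eye and vessel development. *Foxf1* and *Foxf2* respond to hedgehog signals in mesenchyme, and loss of *Foxf2* causes cleft palate in mice. *Foxl1* acts in gut mesenchyme, *Foxl2* in the eyelid and the ovary, and *Foxd1* and *Foxd2* in the kidney among other organs. *Foxp1* and *Foxp2* act in the brain and elsewhere, and *FOXP2* is known for its part in human speech. DLX2 itself is a homeodomain factor expressed in cranial neural crest cells of the jaw.

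The replicates differed in depth. The whole lists held 28061 peaks in replicate 1 and 62093 in replicate 2, and 10921 shared regions. A shared region is the stretch where a replicate 1 peak and a replicate 2 peak overlap, by 1 bp or more. The median number of fragments at a summit, inferred from each peak's deposited fold and p, was 6 in replicate 1 and 9 in replicate 2. The lowest local background in a library was 0.387 fragments in replicate 1 and 1.1 in replicate 2. Intervals below are 95% intervals that cover counting error only.

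In the forkhead windows, replicate 1 listed 35 peaks and replicate 2 listed 91, with 17 shared regions. Most of the shared regions lay in a single place, the *Foxf1*, *Foxc2* and *Foxl1* locus on chromosome 8, with 12 of the 17. The *Foxl2* window had 3, and the windows of *Foxf2* and *Foxd1* had 1 each. No shared region lay inside or within 100 kb of *Foxc1*, *Foxd2*, *Foxp1* or *Foxp2*. Thus 6 of the 10 genes had a shared region in their window, or 60.0%, against 60.2% of all protein-coding genes, so that the share was at the background. No shared region lay inside any of the 10 genes, where 14.6% of protein-coding genes held one. The 14.6% covers genes of every length, while 8 of the 10 are no longer than 5.59 kb. No share over coding genes of like length was computed.

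The peak density over the joined windows was 1.26 peaks per 100 kb in replicate 1 (exact Poisson interval 0.878 to 1.75) and 3.28 in replicate 2 (2.64 to 4.02), a mean of 2.27 ± 1.43 (SD, n = 2). Shared regions occurred at 0.612 per 100 kb (0.357 to 0.980). Of the replicate 1 peaks in the windows, 17 of 35 met a replicate 2 peak, or 48.6% (Wilson interval 33.0 to 64.4%), beside 38.9% over the whole list (38.3 to 39.4%). Of the replicate 2 peaks, 16 of 91 met a replicate 1 peak, or 17.6% (11.1 to 26.7%), beside 17.2% over the whole list (16.9 to 17.5%). In both replicates the interval for the forkhead windows held the value of the whole list. The intervals take peaks as independent, although 12 of the 17 replicate 1 peaks that met lay at 1 locus. The counts by locus are small at most loci, and differences between loci were not tested. In replicate 1, 12 of 15 peaks met at the chromosome 8 locus and 3 of 4 near *Foxl2*. Near *Foxf2* and *Foxc1* it was 1 of 5, as near *Foxd1*. *Foxp1* had 0 of 5 and *Foxd2* 0 of 1. In replicate 2, 11 of 25 met at the chromosome 8 locus and 3 of 10 near *Foxl2*. Near *Foxf2* and *Foxc1* it was 1 of 9, as near *Foxd1*. *Foxp1* had 0 of 27, *Foxd2* 0 of 9 and *Foxp2* 0 of 2.

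Among the 10 genes the median density per 100 kb was 1.72 peaks in replicate 1 and 4.44 in replicate 2, and 0.490 for shared regions. Medians over all protein-coding genes, with the same windows, were 1.37, 3.38 and 0.440. These medians hide a wide spread, shown in the plot of density for each gene.

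**Figure D1:**
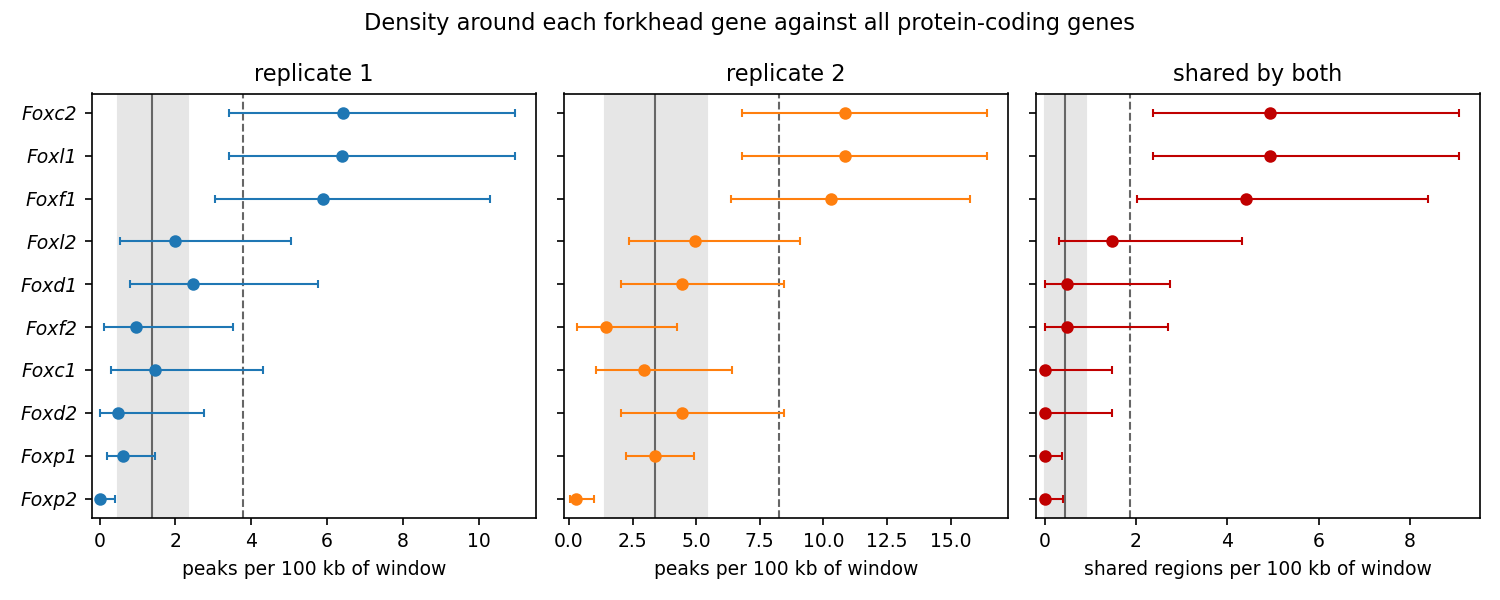
Peaks per 100 kb of window around each of the 10 forkhead genes in replicate 1, in replicate 2 and shared by both, with exact Poisson intervals, or the limit of 3 counts where the count is 0. That limit is tighter than the exact interval. Grey bands span the quartiles of all 21779 protein-coding genes, solid lines mark their medians and dashed lines their 95th percentiles (3.79, 8.27 and 1.87), which only *Foxc2*, *Foxl1* and *Foxf1* exceeded in all 3 panels.

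*Foxf1*, *Foxc2* and *Foxl1* lie beside each other on chromosome 8, and their windows overlap, so that most of their regions are the same. *Foxf1* lies at chr8:121084386-121088154, *Foxc2* at chr8:121116171-121118895 and *Foxl1* at chr8:121127685-121130644. Around *Foxc2*, replicate 1 had 13 peaks and replicate 2 had 22, and 10 regions were shared. The numbers for *Foxl1* were the same. The window of *Foxf1* held 12, 21 and 9. The joined window of 246 kb held 15 peaks in replicate 1 and 25 in replicate 2, with 4.87 shared regions per 100 kb (2.52 to 8.51).

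All 3 genes stood near the top of the protein-coding genes in each list. *Foxc2* had 6.41 peaks per 100 kb in replicate 1, above 99.8% of protein-coding genes, and 10.9 in replicate 2, above 99.6%. By shared regions, with 4.93 per 100 kb, it ranked 10 of 21779, *Foxl1* ranked 11 and *Foxf1* ranked 17 with 4.42. *Mthfsd*, a gene between *Foxf1* and *Foxc2* whose window covers much of the same sequence, ranked 13. The 9 genes ranked above *Foxc2* lie at only 2 places, the *Ugt1a* cluster and its neighbours on chromosome 1 and *Sez6l* with *Gm6588* on chromosome 5. Neighbouring genes share regions, so that these ranks count places several times over.

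The replicates also met more often at this locus than in the windows as a whole, which include it. Of the replicate 1 peaks, 12 of 15 met a replicate 2 peak, or 80.0% (Wilson interval 54.8 to 93.0%). Of the replicate 2 peaks, 11 of 25 met a replicate 1 peak, or 44.0% (26.7 to 62.9%). Over the whole lists the values were 38.9% and 17.2%. The locus was singled out by the same shared regions that make up these shares, so the intervals do not test a difference. The local background was higher too, with a median of 0.770 fragments at the replicate 1 peaks against 0.484 over the whole list, and 2.03 against 1.29 in replicate 2. The part of this background in the number of peaks was not tested.

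The genes themselves held no shared region, and the shared regions flanked them on both sides. In the 100 kb below *Foxf1*, that is, towards lower coordinates, replicate 1 had 7 peaks, replicate 2 had 10, and 5 regions were shared. In the 100 kb above *Foxl1* there were 8, 10 and 7. In the 46.3 kb between the outer ends of *Foxf1* and *Foxl1* replicate 1 had 0 peaks and replicate 2 had 5. In replicate 2 that was 10.8 peaks per 100 kb, beside 10 in each flank. The gap over the genes on the map of the peaks is one of replicate 1 and of the shared regions only.

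**Figure D2:**
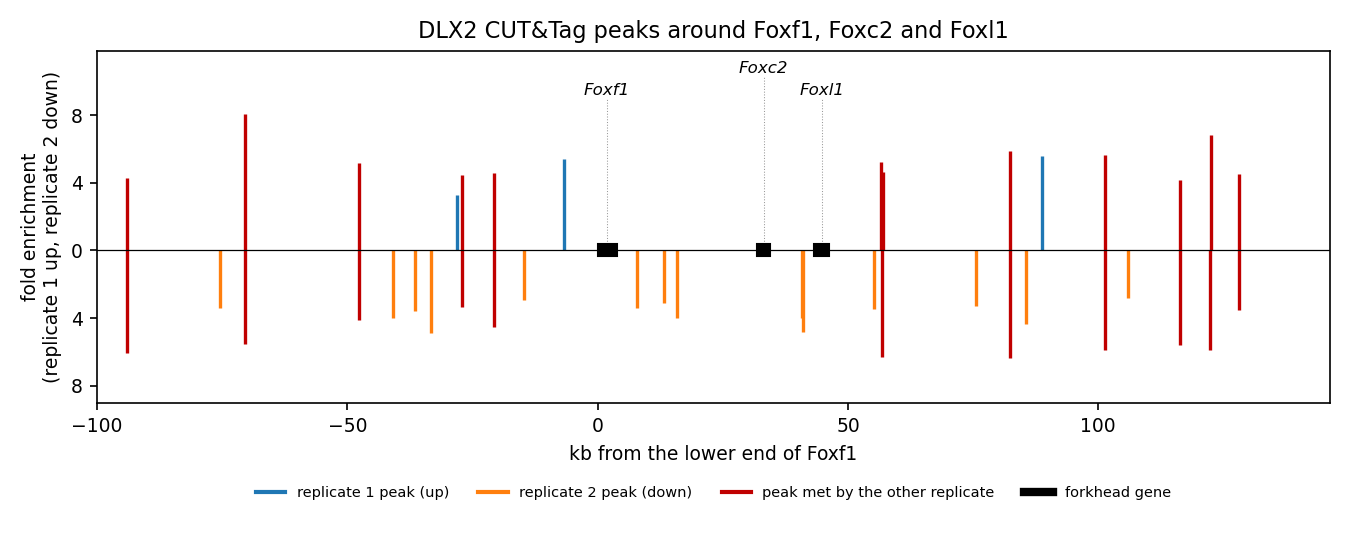
DLX2 peaks around *Foxf1*, *Foxc2* and *Foxl1* by distance from the lower end of *Foxf1* in kb, with the deposited fold enrichment of replicate 1 upwards and of replicate 2 downwards. Red lines are peaks met by the other replicate, and 12 of 15 replicate 1 peaks and 11 of 25 replicate 2 peaks are red, none of them between the outer ends of *Foxf1* and *Foxl1* (black bars).

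Below *Foxf1*, the shared region with the highest fold in replicate 1 was chr8:121013873-121014148, 70.2 kb away and in no annotated gene. Its fold enrichment was 8.07 in replicate 1 and 5.51 in replicate 2, on 15 and 16 fragments, with a −log10 q of 8.89 and 6.15. It was 1 of 2 shared regions at this locus with a −log10 q of at least 5 in both replicates. Farthest from the gene, at 93.9 kb, chr8:120990231-120990487 had a fold of 4.30 and 6.10. The region chr8:121036627-121036714, 47.7 kb away and inside the non-coding gene *Gm46071*, had a fold of 5.17 and 4.12.

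The remaining pair of shared regions below *Foxf1* lay inside *Fendrr*, a long non-coding RNA gene beside *Foxf1* that is required for heart and body wall development. The nearer to *Foxf1*, chr8:121063515-121063690, was 20.7 kb from it, where the folds of 4.56 in replicate 1 and 4.53 in replicate 2 rested on 7 and 11 fragments. The other, chr8:121057251-121057340, was 27.0 kb away, with a fold of 4.45 and 3.37 on 7 and 8 fragments. The fold in the second of these, taken in the lower replicate, exceeded that of only 5.85% of all shared regions. Still closer to *Foxf1* was a peak of replicate 1 alone, 6.59 kb below it and also inside *Fendrr*, with a fold of 5.42 on 8 fragments.

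Above *Foxl1*, the nearest shared regions were chr8:121141001-121141126 and chr8:121141250-121141351, 10.4 kb and 10.6 kb from the gene. They are separate peaks in replicate 1, with folds of 5.25 and 4.65, that meet 1 and the same peak in replicate 2, with a fold of 6.29 on 18 fragments. In no annotated gene, they were also the shared regions nearest to *Foxc2*, at 22.1 kb and 22.4 kb.

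The highest fold in the lower replicate at this locus was found at chr8:121166685-121166789, 36.0 kb above *Foxl1* and within 2 kb of *Gm33633*. It was 5.89 in replicate 1 and 6.38 in replicate 2, on 9 and 20 fragments. Nearly as high in both was chr8:121206685-121206953, 76.0 kb above *Foxl1*, with 6.82 and 5.89 on 12 and 21 fragments and a −log10 q of 6.26 and 8.41. This was the other region at the locus with a −log10 q of at least 5 in both replicates.

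The last 3 regions above *Foxl1* were weaker in at least 1 replicate or farther away. At 55.0 kb, chr8:121185598-121185851 had folds of 5.65 and 5.88 on 9 and 15 fragments. At 69.9 kb, inside the non-coding gene *5033426O07Rik*, chr8:121200588-121200755 had 4.15 and 5.60 on 6 and 16 fragments. At 81.8 kb, within 2 kb of *Gm33739*, chr8:121212448-121212562 had 4.51 and 3.53 on 8 and 11 fragments. Its summits in the replicates lay 1 bp apart.

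The dense stretch went beyond the windows, as a wider span chosen after these values were seen showed. Within 500 kb of either outer end of the 3 genes, 1.05 Mb in all, replicate 1 had 54 peaks and replicate 2 had 106, and the 39 shared regions came to 3.73 per 100 kb. Cut into 10 steps of 100 kb outward from the genes, 9 steps held at least 1 shared region, and the steps ranged from 0 to 7. The step from 200 to 300 kb above *Foxl1* held 7, as many as the step from 0 to 100 kb above the gene. For the other 6 loci the same span gave between 0.195 shared regions per 100 kb around *Foxp2* and 0.997 around *Foxl2*.

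*Foxl2*, at chr9:98955607-98958126, was the only other gene of the list with more than 1 shared region. Replicate 1 had 4 peaks in its window and replicate 2 had 10, and 3 regions were shared, all on the side of higher coordinates. Their density was 1.48 per 100 kb (0.305 to 4.33), above 92.2% of protein-coding genes, while the densities of 1.98 in replicate 1 and 4.94 in replicate 2 were above 68.8% and 69.4%. The interval rests on 3 regions and is wide. It overlaps that of the *Foxf1*, *Foxc2* and *Foxl1* locus, which does not show that the densities are alike.

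By the lower of their folds, 2 of the 3 *Foxl2* regions were the strongest of the 17. The region chr9:99024857-99025182, 66.7 kb above *Foxl2* and inside the coding gene *Gm1123*, reached 8.42 in replicate 1 and 7.59 in replicate 2, on 12 and 19 fragments. Its −log10 q was 8.56 and 10.4, and its lower fold exceeded that of 96.0% of all shared regions. It was the only shared region of the 17 inside a protein-coding gene. The region chr9:98967877-98968380 was the nearest to any of the 10 genes, 9.75 kb above *Foxl2* and in no gene, with folds of 7.26 and 6.57 on 11 and 19 fragments. With 504 bp it was also the longest of the 17. Between them, 18.5 kb from *Foxl2*, chr9:98976603-98976713 had folds of 4.32 and 4.71 on 5 and 9 fragments.

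*Foxf2* at chr13:31625816-31631406 and *Foxc1* at chr13:31806646-31810635 lie near each other on chromosome 13, in a joined window of 385 kb where replicate 1 had 5 peaks, replicate 2 had 9, and 1 region was shared. These are the relatives of *Foxf1* and *Foxc2*. The locus had 0.260 shared regions per 100 kb (0.00658 to 1.45), beside 4.87 (2.52 to 8.51) at the *Foxf1*, *Foxc2* and *Foxl1* locus. The comparison is of 1 place with another, 1 of them singled out by its shared regions, and has no replicate check beyond the 2 libraries. The intervals therefore do not test a difference.

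The shared region, chr13:31687102-31687274, lay 55.7 kb above *Foxf2*, in no gene, with folds of 4.66 and 6.31 on 6 and 14 fragments. It was 119 kb from *Foxc1* and so outside its window. *Foxf2* had 2 peaks in replicate 1 and 3 in replicate 2, and its densities of 0.973 and 1.46 per 100 kb were above 40.7% and 25.9% of protein-coding genes. *Foxc1* had 3 and 6 peaks, of which none met a peak of the other replicate. The nearest was a replicate 1 peak 1.14 kb past its upper end, with a fold of 4.33 on 5 fragments, and the nearest replicate 2 peak lay 8.02 kb from the gene.

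*Foxd1*, at chr13:98354245-98356705, had 5 peaks in replicate 1 and 9 in replicate 2, and 1 region was shared, at densities of 2.47, 4.45 and 0.494 per 100 kb. They were above 79.9%, 63.4% and 63.3% of protein-coding genes. The shared region, chr13:98432989-98433254, lay 76.3 kb above the gene inside *2310005E17Rik*, a non-coding gene, and within 2 kb of *Gm52050*. Its folds were 5.55 and 7.22, on 8 and 19 fragments.

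*Foxd1* was also the only one of the 6 genes with a promoter window at hand that had a peak in it. A promoter window is defined as 250 bases before to 50 after an annotated start. RefSeq promoter windows came to 8 in all, with 3 for *Foxp1*, and none was at hand for *Foxf1*, *Foxc2*, *Foxl1* and *Foxp2*. The replicate 1 peak chr13:98353851-98354072, with a fold of 4.33 on 5 fragments and a −log10 q of 2.11, covered the first 78 bases of the *Foxd1* window. No replicate 2 peak met it, and the nearest replicate 2 summit was 4.55 kb away. Over all 32851 promoter windows, 0.791% were touched by a replicate 1 peak, 2.69% by a replicate 2 peak and 0.161% by a shared region. The *Foxd1* window is printed here because it is where a peak and a start of the list came together, on the plus strand at chr13:98353995-98354294 of GRCm38.p6, with the bases under the peak in capitals.

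Foxd1: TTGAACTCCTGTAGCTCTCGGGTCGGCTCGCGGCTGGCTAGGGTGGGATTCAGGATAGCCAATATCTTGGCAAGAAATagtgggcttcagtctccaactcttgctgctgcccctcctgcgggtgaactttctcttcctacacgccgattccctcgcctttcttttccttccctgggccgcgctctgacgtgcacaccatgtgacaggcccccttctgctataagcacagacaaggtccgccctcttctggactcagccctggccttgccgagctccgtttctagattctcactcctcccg

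The letters TAAT, the core that homeodomain proteins favour, did not occur in this window on either strand, although 58.0% of all promoter windows held them. Among the 8 windows of the list, 2 held TAAT, both of *Foxp1*, and 1 of these held TAATTA, which 5.29% of all windows held and which contains TAAT. The forkhead letters TGTTTAC occurred in 0 of the 8 windows and in 3.65% of all, and TGTTTAT in 2, both of *Foxp1*, and in 4.60% of all. The E-box CACGTG occurred in 0 of the 8 and in 7.15% of all. The windows of the list were rich in G and C, with a median of 67.5% against 52.7%. A match of letters is a description of the sequence and not of a bound site.

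*Foxd2*, at chr4:114906280-114908898, had 1 peak in replicate 1 and 9 in replicate 2, and none met. The lone replicate 1 peak lay 39.1 kb below the gene inside the non-coding gene *Gm33655*, with a fold of 4.84 on 7 fragments, and the nearest replicate 2 summit was 8.49 kb from its own. In replicate 2 the density of 4.44 per 100 kb was above 63.4% of protein-coding genes, and in replicate 1 that of 0.494 was above 27.7%. The nearest shared region was 243 kb from the gene. A count of 0 shared regions in this window allows up to 3 counts, or 1.48 per 100 kb. The exact Poisson interval reaches 1.82.

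**Figure D3:**
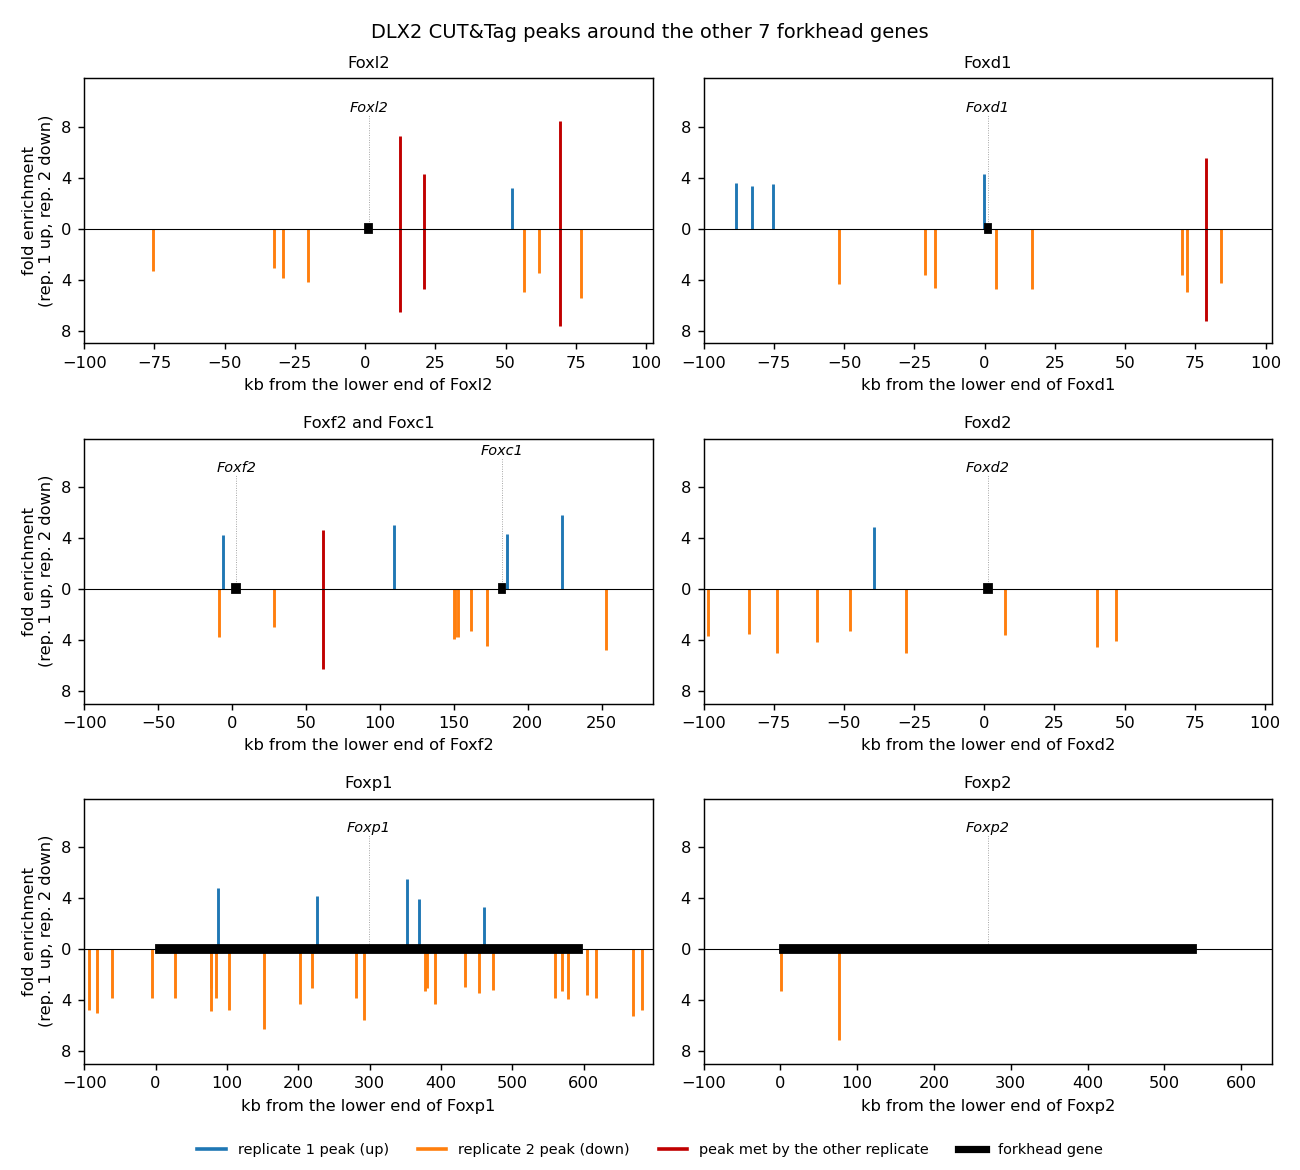
DLX2 peaks around the other 7 forkhead genes by distance from the lower end of the gene named under each panel, in kb, with the deposited fold enrichment of replicate 1 upwards and of replicate 2 downwards. Peaks met by the other replicate are red: 3 near *Foxl2*, 1 near *Foxd1* and 1 near *Foxf2*, with none near *Foxc1*, *Foxd2*, *Foxp1* or *Foxp2*.

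*Foxp1* and *Foxp2* differ from the other 8 genes in length, with 597 kb and 541 kb, and their windows made up 55.4% of the sequence examined. Over these 1.54 Mb there were 0.325 peaks per 100 kb in replicate 1, 1.89 in replicate 2 and no shared region, which allows up to 3 counts, or 0.195 per 100 kb. Over the 1.24 Mb around the 8 short genes the densities were 2.42, 5.01 and 1.37. These were raised by the *Foxf1*, *Foxc2* and *Foxl1* locus, with 6.09, 10.2 and 4.87. The other loci of short genes had 0.494 to 2.47 in replicate 1, 2.34 to 4.94 in replicate 2 and 0 to 1.48 shared. *Foxp1* had 0.627, 3.39 and 0, so that its replicate 2 density lay within their range. Of the 197 protein-coding genes at least as long as *Foxp2*, 84.3% had a shared region in their window, and *Foxp1* and *Foxp2* were among the 31 that had none. The median densities of those long genes were 0.672 in replicate 1, 1.29 in replicate 2 and 0.246 shared regions per 100 kb.

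*Foxp1*, at chr6:98925342-99522746, had many peaks in replicate 2 but few in replicate 1. Replicate 1 had 5 peaks, all inside the gene, with folds of 3.31 to 5.49 on 4 to 7 fragments. Replicate 2 had 27, of which 19 lay inside the gene, with folds up to 6.25 on 13 fragments. Its densities were 0.627 per 100 kb in replicate 1, above 31.0% of protein-coding genes, and 3.39 in replicate 2, above 50.1%.

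None of these peaks met. The closest summits of the replicates inside *Foxp1* lay 2.62 kb apart, and the median distance from a replicate 1 summit to the nearest of replicate 2 was 6.44 kb. The peak of replicate 2 with the highest fold, chr6:99076650-99077001, had its summit 151.5 kb from the lower end of the gene, where replicate 1 had no peak within 64.5 kb. The nearest shared region lay 106 kb outside the gene.

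*Foxp2*, at chr6:14901349-15441977, was the emptiest of the 10. Replicate 1 had no peak in the window of 741 kb, and replicate 2 had 2, both inside the gene, a density of 0.270 per 100 kb that was above 8.55% of protein-coding genes. The density of *Foxp1* in the same replicate was 3.39, on a gene of like length. Among the 197 long genes, 9 had no replicate 1 peak, and 10 had a replicate 2 density no higher than that of *Foxp2*. One of its peaks, chr6:14901634-14901787, had its summit 0.411 kb inside the lower end of the gene, with a fold of 3.33 on 6 fragments. The other, chr6:14977932-14978335, had a fold of 7.14 on 14 fragments and a −log10 q of 7.84, 76.9 kb inside. The local background of these peaks was at 1.1 fragments, the lowest of the library.

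Set side by side, the 17 shared regions were short and none lay inside a gene of the list. Their lengths ran from 88 to 504 bp with a median of 173 bp. They lay 9.75 to 93.9 kb from the nearest gene of the list, with a median of 55.0 kb, and only 1 was within 10 kb, 5 within 25 kb and 8 within 50 kb. Windows of this width set such distances in large part. Counted for each of the 8 short genes in turn, the median distance over 34 pairs of gene and region was 61.4 kb, with 20.6% within 25 kb and 32.4% within 50 kb. Over the 5368 coding genes no longer than *Foxf2* it was 49.2 kb, with 25.2% and 50.9%, and most of the 34 pairs come from the overlapping windows on chromosome 8. No annotated gene held 11 of the 17, 5 lay in long non-coding RNA genes and 1 in a coding gene. Of all shared regions, 44.0% lay in no gene, 11.1% in a long non-coding RNA gene and 46.7% in a coding gene. The summits of the replicates were 1 to 224 bp apart, with a median of 86 bp.

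The regions rested on 5 to 15 fragments in replicate 1, with a median of 8, and on 8 to 21 in replicate 2, with a median of 16. Replicate 2 had the higher fold in 9 regions and replicate 1 in 8. The lower of the folds had a median of 4.66, beside 4.51 over all shared regions, and was above that value in 11 of the 17. A fold of at least 5 in both replicates was found for 8, and a −log10 q of at least 5 in both for 4, of which 2 lay near *Foxl2*. The share of all shared regions that pass these limits was not set beside these counts.

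**Figure D4:**
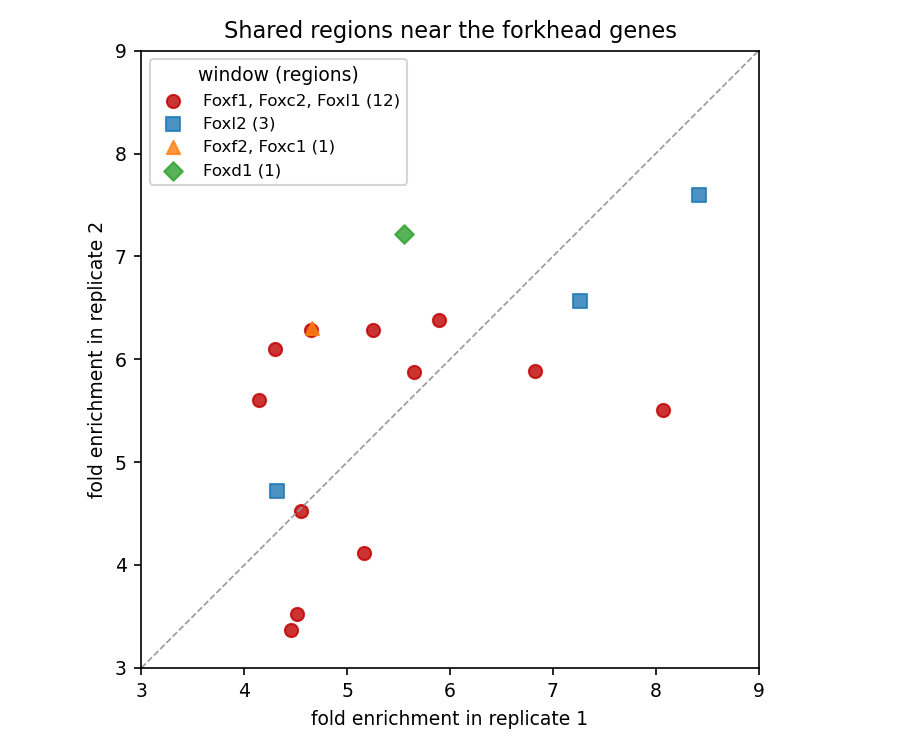
Deposited fold enrichment of the 17 shared regions in replicate 1 (x axis) and replicate 2 (y axis), with a symbol for each locus and a dashed line where both are equal. Folds ran from 4.15 to 8.42 in replicate 1 and from 3.37 to 7.59 in replicate 2, and the region with the highest lower fold lay near *Foxl2*.

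Peaks in the windows that met the other replicate were stronger than those that did not. In replicate 1 the 17 that met had a median fold of 5.17 on 8 fragments, and the 18 others 4.27 on 5. In replicate 2 the 16 that met had a median of 5.88 on 16 fragments, and the 75 others 3.81 on 8. With so few fragments behind a peak, the absence of a shared region near *Foxc1*, *Foxd2*, *Foxp1* and *Foxp2* says only that none was detectable at this depth.

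A list of 34 other forkhead genes was set beside these values. Of the 34, 19 had a shared region in their window, or 55.9%, beside the 60.0% of the 10 genes. Of the 10 genes, 7 lay away from the chromosome 8 locus, and 3 of these 7 had one, or 42.9%. For the 34 other genes the median densities per 100 kb were 1.20 peaks in replicate 1 and 3.97 in replicate 2, and 0.490 for shared regions. For the 7 genes the medians were 0.973, 3.39 and 0 shared regions. The densest of the 34 was *Foxn4* with 9 peaks, 22 peaks and 8 shared regions, or 3.63 per 100 kb, followed by *Foxo3* with 1.70 and *Foxo6* with 1.36. None of the 34 reached the 4.93 of *Foxl1*. *Foxq1*, whose window overlaps those of *Foxf2* and *Foxc1*, had 4 peaks, 8 peaks and 1 shared region, and *Foxe3*, beside *Foxd2*, had 1, 7 and 0.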

How the data were processed

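Peaks were called on each library separately, and replicates were not pooled. Per the labels' processing notes, the authors used Trim Galore 0.4.5, Bowtie 1.1.2 and MACS2 2.2.7 on the mm10 assembly (GRCm38). The study's methods name another release of the trimmer and bowtie2, and describe transposase tagging where the labels describe sonication and ligation. The settings of the peak caller, and any filter applied to these lists before the study used them, are not given in the sources used here, so that list lengths and densities hold for the lists as deposited. The deposited fold enrichment, a ratio from the authors' peak caller, sets the summit of a peak against the background nearby in the same library. The deposited −log10 p and −log10 q and the deposited score are those of the peak caller, and the deposited summit offset was used for distances. None of these values was changed, and the score was used for no result.

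Gene extents came from RefSeq (GRCm38.p6), which was read without strand, exons or transcripts, so that distances are to either end of a gene. Of 49943 genes, 340 placed before position 3000000 were left out, which left 49603, of them 21779 protein-coding. Fragments at the summit were inferred from fold = (fragments + 1)/(background + 1) and the upper Poisson tail, and came out whole for 100% of peaks within 0.001. They are not counts given by the authors, and read totals are unknown. Shared regions needed 1 bp in common. Densities carry exact Poisson intervals and shares Wilson intervals at 95%, and a count of 0 allows up to 3 counts. This limit lies below the upper end of the exact Poisson interval for a count of 0, and so is the tighter one. Overlaps, window counts and the recovery of fragments were tested on simulated data. Replicate numbers follow the order of the records and pair nothing.

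The 10 genes, the 34 other forkhead genes and the letters searched were chosen with earlier results of these data known. By rule, all 10 genes and every shared region in their windows are named, other genes where they hold a region or end within 2 kb of it, and the 3 densest other forkhead genes. Peaks of 1 replicate, the densest coding genes and the wider span of 500 kb were picked after their values were seen. The work used scipy 1.17.1, pandas 2.3.3, numpy 2.4.6 and matplotlib 3.10.9 under Python 3.11.15.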

Additional observations from a re-analysis of the deposited data

How the results depend on the processing

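The 17 shared regions became 4 when a −log10 q of 5 was required, 8 for a fold of 5 or more and 9 where 50% of each peak had to be shared, with densities of 0.144, 0.288 and 0.324 per 100 kb in place of 0.612. Windows of 50 kb and 200 kb gave 8 and 34 regions. The share of replicate 1 peaks that met a replicate 2 peak, 48.6%, moved to 100% at the q limit and to 25.7% under the 50% overlap. The share of replicate 2 peaks, 17.6%, moved to 30.8% at the q limit, 42.1% at the fold limit and 9.89% under the 50% overlap. At the q limit both shares, the 100% among them, rest on only 4 shared regions. Leaving out a replicate leaves the peaks of the other alone, so that the counts ranged from 35 to 91, the genes with a region in their window from 9 to 10, those with one inside from 1 to 2, the density from 1.26 to 3.28 and the median density from 1.72 to 4.44. The genes with a region in their window, 6, became 4 at the q limit and with 50 kb windows, 9 with 200 kb windows and 5 otherwise. No share over all protein-coding genes was set beside these counts of genes under the changed settings. They cannot be read against a background. The median density, 0.490, fell to 0 at the q limit and with 50 kb windows, to 0.247 at the fold limit and under the 50% overlap and to 0.243 with summits within 150 bp. Taking as moved a count that changed by more than 1.5 times, a share or density outside its counting interval, or a median density more than the SD between the replicates away, 21 of 50 alternatives moved a value, a tolerance wide enough to pass the changes of the median just given. For single genes, 28 of 60 settings that kept both replicates moved the number of shared regions, 20 to a lower and 8 to a higher number, and 15 of 20 that kept 1 replicate moved it, all 15 to a higher number.

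The place of *Foxc2* among protein-coding genes by density of shared regions was recomputed after the data were seen. It lay above 96.8% of them at the q limit, 98.4% with 50 kb windows, 99.5% under the 50% overlap, 99.9% at the fold limit and more than that under the other definitions of a shared region and window. With replicate 2 alone it lay above 99.6% and with replicate 1 alone above 99.8%. The single regions of *Foxf2* and *Foxd1* were not kept at the q limit or with 50 kb windows. At the fold limit and under the 50% overlap that of *Foxf2* was lost too, and that of *Foxd1* was kept. With summits within 150 bp, the *Foxd1* region was lost, that of *Foxf2* was kept and 1 of the 3 regions of *Foxl2* was left. Limits are the low number of fragments behind each peak, the absence of a control library, and 2 libraries of unequal depth. No paired analysis was possible because there is 1 group.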
